A study of Mus musculus with 15 samples.

Results

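The comparison set astroglia of the subventricular zone (SVZ) against astroglia of the cerebellum, and covered 10 of the 15 arrays of the series, 5 from each region, chosen by the sample titles. The other 5 arrays came from hippocampus, entered the same fit and are used for 1 further test. All mice were Gli1-CreER;GFAP-GFP;R26tdTomato, male and 6 to 8 weeks old. In these mice a tamoxifen-dependent recombinase is made where Gli1 is expressed and switches on a lasting red reporter, while GFAP promoter sequence drives a green reporter. Mice of every group received tamoxifen as 2 doses of 10 mg, and 3 weeks later SVZ, hippocampus and cerebellum were dissected and cells with both reporters were sorted. Each array carried amplified RNA from 10 to 12 mice, so p-values measure the spread between pools. The sort selects on past Gli1 expression and on the GFAP reporter, not on stem cell activity, and brain region and any difference in cell state cannot be told apart. Each of 18194 genes was represented by 1 probe set, that with the highest mean over the 15 arrays. Differences are SVZ minus cerebellum on a scale read as log2 from the range of the values, where 1 unit is a doubling, each ± its standard error in the limma fit, and a gene was called higher or lower at an adjusted p under 0.05. The array medians are low for the stated normalization, so an unstated background or scaling step is possible, and levels and folds hold only on the deposited scale.

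Sonic hedgehog is a secreted signal whose receptor Patched1 releases Smoothened when bound, after which Gli transcription factors turn on targets that include Gli1 and Ptch1. In the SVZ, a germinal layer beside the lateral ventricle, astroglia that respond to this signal include the stem cells that make neurons for the olfactory bulb. In the cerebellum the responding astroglia are chiefly Bergmann glia, whose radial processes wrap Purkinje cell synapses and carry AMPA-type glutamate receptors. The series design set both germinal regions against cerebellum to find genes that differ.

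The arrays of the 2 groups differed in ways that bear on every result below. Arrays of SVZ varied more among themselves, with a median SD of 1.00 over the 4816 genes whose mean exceeded 3, against 0.481 for cerebellum. The poly-A spike-in probe sets, which detect RNA added to the sample, averaged 9.92 to 11.80 on the SVZ arrays and 7.63 to 11.10 on the cerebellum arrays, lowest on cerebellum 4 and 5. Between 15.1% and 19.5% of probe sets lay above 3 on the SVZ arrays and between 20.1% and 22.4% on the cerebellum arrays. These ranges did not overlap. Beside a result it is therefore said where a call is lost after adjustment for spike-in level or on dropping cerebellum 4 and 5, both chosen after the data were seen, or under another alternative, with the adjusted p of that fit in brackets. The fits with that adjustment hold fewer calls, and the cause was not tested.

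Marker lists checked what the sorted pools held. The 12 astrocyte markers averaged 7.82 to 8.33 over the SVZ arrays and 8.03 to 9.16 over the cerebellum arrays, and each had a mean above 3 in both regions. All 5 SVZ arrays lay below all 5 cerebellum arrays for the 17 genes of Bergmann glia and cerebellar astrocytes, at 3.51 to 5.20 against 7.22 to 7.90. The 18 microglia and macrophage markers averaged 2.67 to 5.36 in SVZ and 1.37 to 2.45 in cerebellum, with every SVZ array above every cerebellum array. Of these 18 markers, 10 had an SVZ mean above 3 and 5 had a cerebellum mean above 3, while Tmem119 and Itgam, which mark microglia and myeloid cells, read 1.35 and 0.98 in SVZ. Choroid plexus markers ran the other way, at 1.74 to 2.64 in SVZ and 1.99 to 8.00 in cerebellum, and these ranges overlapped. The 9 markers of neurons in general averaged 1.86 to 2.17 in SVZ and 2.36 to 3.48 in cerebellum, and the 11 markers of cerebellar neurons 1.03 to 1.59 and 2.00 to 2.78, so both were lower on every SVZ array. Oligodendrocyte precursor markers were higher on every SVZ array (1.93 to 2.62 against 1.19 to 1.43), though only 1 of the 11 genes had an SVZ mean above 3. The 19 endothelial and pericyte markers averaged 1.63 to 3.17 in SVZ and 1.41 to 2.01 in cerebellum, with overlapping ranges. Of these, 18 had a positive difference, 1 (Pdgfrb) was called higher, and 3 had an SVZ mean above 3. In sorted bulk RNA fewer cells of a type and less RNA per cell cannot be told apart. The part of these other cells in the gene groups below was not tested.

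**Figure D1:**
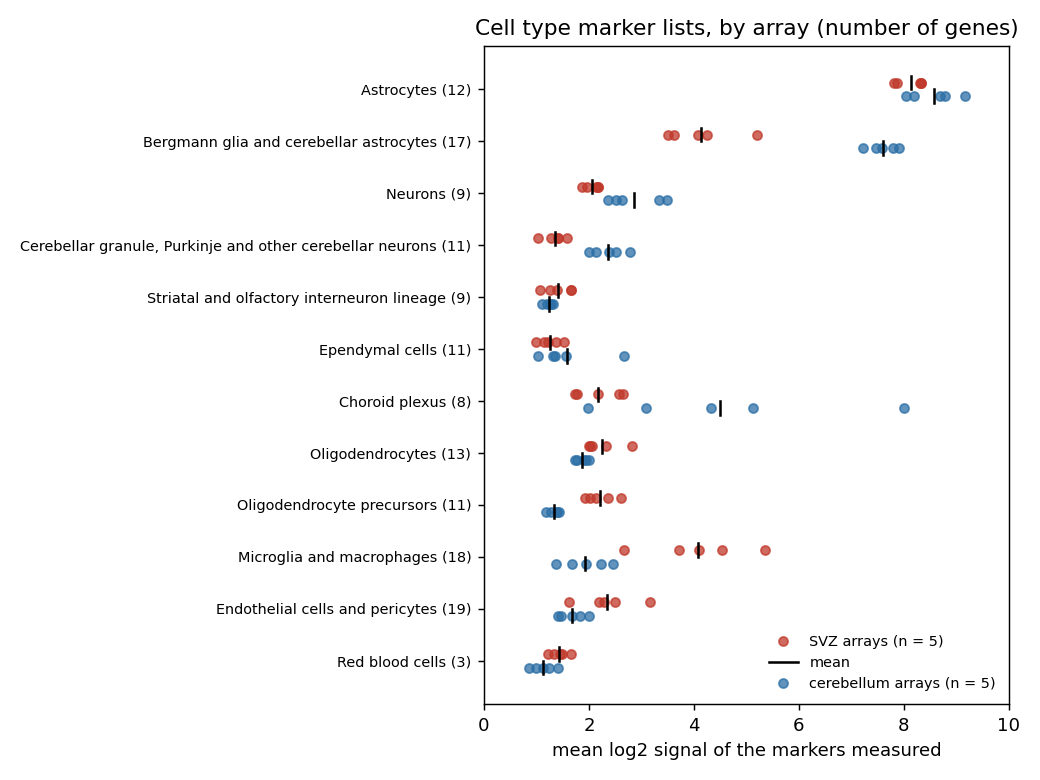
Mean log2 signal (x axis) of each cell type marker list (y axis, number of measured genes in brackets), with 1 point per array, red for the 5 SVZ arrays and blue for the 5 cerebellum arrays, and a black bar at the group mean. The astrocyte list is highest in both regions, the Bergmann glia list separates them, and the microglia list is higher on all 5 SVZ arrays.

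Genes tied to the sort came next. Gli1 read 1.79, 2.73, 5.06, 2.12 and 2.30 on SVZ arrays 1 to 5 and 3.36, 3.66, 2.73, 3.11 and 3.00 on cerebellum arrays 1 to 5. SVZ array 3 stood well above the other 4 SVZ arrays, the groups overlapped, and the difference of -0.37 ± 0.80, adjusted p = 0.807 did not pass. Gfap read 2.69, 4.83, 4.65, 5.46 and 4.91 on SVZ arrays 1 to 5 and 3.26, 5.62, 4.15, 6.03 and 5.90 on cerebellum arrays 1 to 5. Here too the groups overlapped, with a difference of -0.48 ± 0.59, adjusted p = 0.657. The difference turned to 0.52 after adjustment for spike-in level and 0.16 on dropping cerebellum 4 and 5, neither of which passed, and was -1.12 on averaging all probe sets (adjusted p = 0.0204). Ptch1 read 7.13, 7.63, 7.63, 7.70 and 5.96 on SVZ arrays 1 to 5 and 8.05, 9.32, 8.11, 9.79 and 9.08 on cerebellum arrays 1 to 5. Every SVZ value of this receptor gene lay below every cerebellum value, and the difference was -1.66 ± 0.42, adjusted p = 0.0339. That call was lost without SVZ 1 (adjusted p = 0.0635), SVZ 5 (0.067), cerebellum 2 (0.086), cerebellum 4 (0.0866) or cerebellum 5 (0.0857). Adjustment for spike-in level (0.547), dropping cerebellum 4 and 5 (0.239), quantile normalization (0.142), averaging of all probe sets (0.175) and a fit with no hippocampus arrays (0.0508) also lost it. Further probe sets of Ptch1 differed by -1.12 to 0.832 and were not called.

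Across all genes, 188 were higher in SVZ and 814 lower, which together is 5.51% of those tested, 1.03% upward and 4.47% downward. The median difference was 0.068 over all genes and -0.715 with dim genes (mean of 3 or less) left out, which bears on the medians of bright lists below. In that fit 117 of 4816 genes were higher and 643 lower. Both are larger shares than over all genes, which bears on the shares of bright lists called below. All 5 SVZ arrays lay above all 5 cerebellum arrays for 473 genes (2.6%) and below them for 1095 genes (6.02%), whether called or not. The median size of a called difference was 1.96 upward and 1.92 downward, and 20 higher and 42 lower genes differed by at least 4. Of the higher genes 120 had a cerebellum mean under 3, and of the lower genes 487 had an SVZ mean under 3, where folds can be understated. With quantile normalization 213 genes were higher and 396 lower, which put 35% of calls upward against 18.8% in the fit used. The number higher was 114 without cerebellum 2, 119 without cerebellum 3, 114 without cerebellum 4 and 108 without cerebellum 5, and the number lower was 504 without cerebellum 5. After adjustment for spike-in level 41 were higher and 148 lower, and on dropping cerebellum 4 and 5 the numbers were 71 and 297. Each called gene whose difference is given kept its call with any 1 of the 10 arrays left out, apart from Zic1 and Ptch1. Grin2c, Grm3, Sulf1, Chst10 and Nr4a1, named below only to account for a list's count, did not.

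**Figure D2:**
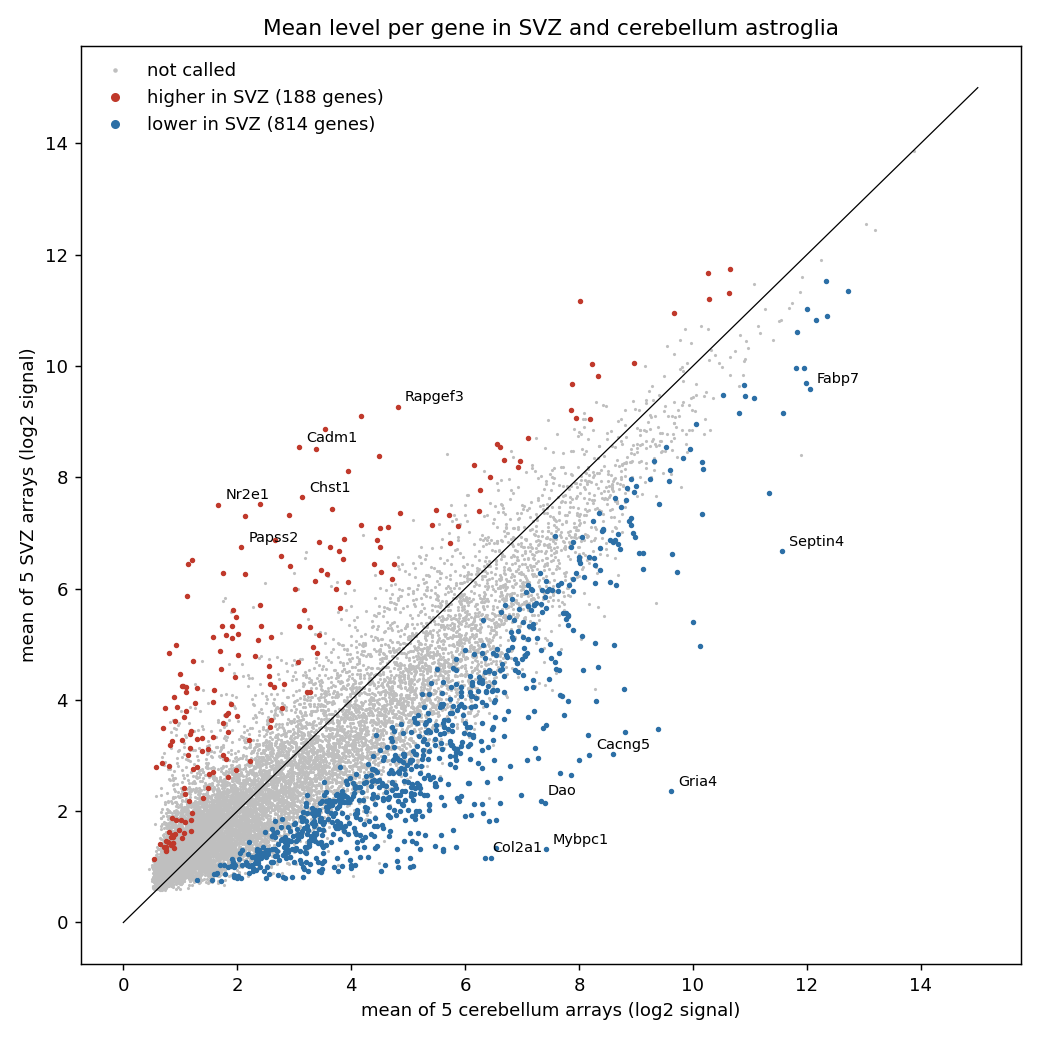
Mean log2 signal of each of 18194 genes over the 5 cerebellum arrays (x axis) and the 5 SVZ arrays (y axis), with red for the 188 genes called higher in SVZ, blue for the 814 called lower, grey for the rest, and a line of equal levels. Mybpc1, Col2a1 and Gria4 lie far below the line with SVZ means under 3, and Nr2e1 and Cadm1 far above it.

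The 15 largest differences upward among called genes with no overlap between regions ran from 5.85 for Nr2e1 to 4.40 for Kcnk1. They fell into several functions. Cell surface adhesion and matrix accounted for Cadm1, Astn1, Gpc5 and Ncan, and sulfate metabolism for Papss2 and Chst1. Signal reception accounted for the Wnt receptor gene Fzd2 (5.13 ± 0.42), the cyclic AMP sensor gene Rapgef3 and the potassium channel gene Kcnk1. Nr2e1, an orphan nuclear receptor of neural stem cells, the long noncoding RNA Miat (5.31 ± 0.89), the proliferation marker Mki67 and Olig1 (4.52 ± 0.28), a transcription factor of the oligodendrocyte lineage, made up the nuclear genes. The other 2 were Csf1r (5.34 ± 0.92) and Laptm5 (4.92 ± 0.85), which stand on the microglia list. Further probe sets of Fzd2 (0.99 to 1.49), Csf1r (1.53 to 2.84), Laptm5 (0.236 to 1.37) and Miat (1.44) had the same sign, but smaller differences, and were not called. Nr2e1 read 8.65, 6.79, 8.51, 5.60 and 7.99 on SVZ arrays 1 to 5 and 3.69, 1.05, 1.07, 0.90 and 1.60 on cerebellum arrays 1 to 5. Mki67 read 5.00, 6.88, 7.18, 5.67 and 4.60 on SVZ arrays 1 to 5 and 1.43, 1.06, 1.06, 1.42 and 0.65 on cerebellum arrays 1 to 5. Cerebellum 1 was the highest of the cerebellum arrays for Nr2e1, and neither gene had an overlap between regions. Cerebellum 1 was also the highest cerebellum array for 58 of the 188 higher genes. Among these 15 genes the call was lost after adjustment for spike-in level for Nr2e1 (adjusted p = 0.0569), Csf1r (0.105), Laptm5 (0.182), Chst1 (0.132) and Kcnk1 (0.0516).

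The 15 largest downward differences ran from -7.26 for Gria4 to -4.98 for Gnb4. Glutamate signalling and turnover supplied Gria4, Cacng5, Frrs1l, the glutamine transporter gene Slc38a1 and Dao. Secreted and matrix proteins supplied the protease inhibitor gene A2m (-5.57 ± 0.62), the growth factor gene Gdf10 (-5.40 ± 0.63) and Col2a1, which encodes type II collagen. The retinaldehyde dehydrogenase gene Aldh1a1, the G protein beta subunit gene Gnb4 (-4.98 ± 0.67), the myosin-binding protein gene Mybpc1, the canopy family gene Cnpy1 (-5.30 ± 0.27), the membrane protein gene Ctxn3 (-5.21 ± 0.35) and the transcription regulators Hopx and Zic1 completed the set. Mybpc1 read 0.58, 2.94, 1.18, 1.11 and 0.79 on SVZ arrays 1 to 5 and 7.95, 7.39, 7.20, 7.38 and 7.16 on cerebellum arrays 1 to 5. Col2a1 read 1.34, 1.16, 1.17, 1.31 and 0.84 on SVZ arrays 1 to 5 and 5.98, 6.56, 6.81, 6.66 and 5.76 on cerebellum arrays 1 to 5. SVZ values of Col2a1 all lay near the array medians of about 1.24, and those of Mybpc1 did so on 4 of 5 arrays, with SVZ 2 higher. SVZ 2 was the highest SVZ array for 283 of the 814 lower genes. Zic1, a transcription factor of the dorsal neural tube, differed by -5.08 ± 1.35, adjusted p = 0.0422, and its call was lost without SVZ 1, 3 or 4 or without any 1 cerebellum array (adjusted p = 0.0696 to 0.0955). Among these 15 genes the call was lost after adjustment for spike-in level for Slc38a1 (adjusted p = 0.0792) and Zic1 (0.64), and on dropping cerebellum 4 and 5 for Zic1 (adjusted p = 0.216). It was also lost with quantile normalization for Zic1 (adjusted p = 0.0863).

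Because the cells were selected for a response to Sonic hedgehog, the 250 bases before the start site of each gene were searched for ACCACCC, the core letters of Gli binding sites, or its reverse complement GGGTGGT. RefSeq start sites of GRCm38.p6 gave such a sequence for 148 of the higher genes, 644 of the lower genes and 14368 of all genes. The letters were found before 8 higher genes (5.41%), 31 lower genes (4.81%) and 702 genes in all (4.89%). A match is only a match of letters. After the values were seen, 2 genes with a match were chosen in each direction. Genes of a single chromosome were set aside in this choice, so a larger difference with a match may exist there. The largest remaining differences were those of Ccdc141 (4.14 ± 0.85, a coiled-coil protein gene) and Nrarp (3.82 ± 0.41, a Notch target) upward, and Ust (-3.82 ± 0.32, a sulfotransferase of chondroitin and dermatan sulfate) and Ctnna3 (-3.48 ± 0.39, an alpha catenin) downward. Their sequences, with up to 30 bases to each side, are shown because they are where the searched letters lie before these 4 genes, Ccdc141 at chr2:77170734-77170800 (- strand), Nrarp at chr2:25180529-25180595 (+ strand), Ust at chr10:8518826-8518883 (- strand) and Ctnna3 at chr10:63457456-63457510 (+ strand), each 5′ to 3′ on the gene's strand with the matched letters in capitals. The arrays of the regions overlapped for Ccdc141 and were separate for the other 3 genes. Of the 4 genes the call was lost after adjustment for spike-in level for Ccdc141 (adjusted p = 0.0646).
Ccdc141: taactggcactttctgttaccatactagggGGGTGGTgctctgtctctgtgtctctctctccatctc
Nrarp: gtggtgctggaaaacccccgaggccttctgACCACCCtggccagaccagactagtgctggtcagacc
Ust: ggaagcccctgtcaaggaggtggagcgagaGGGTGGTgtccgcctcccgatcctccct
Ctnna3: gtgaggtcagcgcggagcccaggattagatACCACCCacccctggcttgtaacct

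Genes for sensing glutamate differed in both directions, 1 subunit gene higher in SVZ and 2 lower. AMPA receptors are tetramers of the subunits encoded by Gria1 to Gria4, and auxiliary proteins set their gating and traffic. Gria4 read 1.75, 5.47, 0.99, 2.34 and 1.25 on SVZ arrays 1 to 5 and 10.03, 10.26, 9.38, 9.32 and 9.12 on cerebellum arrays 1 to 5. Gria1 read 7.68, 6.37, 6.26, 0.92 and 5.77 on SVZ arrays 1 to 5 and 10.58, 10.47, 9.75, 9.60 and 9.56 on cerebellum arrays 1 to 5. Gria2 read 7.60, 8.31, 7.75, 7.04 and 6.42 on SVZ arrays 1 to 5 and 4.59, 3.18, 3.34, 3.55 and 3.68 on cerebellum arrays 1 to 5. SVZ arrays were thus below all cerebellum arrays for Gria4 and Gria1 and above all of them for Gria2, the subunit that limits calcium entry. The differences were -7.26 ± 0.69, adjusted p = 2.45e-05 for Gria4, -4.59 ± 0.95, adjusted p = 0.0117 for Gria1, and 3.76 ± 0.39, adjusted p = 5.15e-05 for Gria2. SVZ 4 held the lowest Gria1 value, far from the other 4 SVZ arrays. Cacng5 read 4.01, 4.13, 3.31, 1.67 and 1.95 on SVZ arrays 1 to 5 and 7.10, 8.16, 7.97, 9.43 and 8.23 on cerebellum arrays 1 to 5. This auxiliary subunit gene differed by -5.16 ± 0.51 (adjusted p = 3.52e-05) with no overlap, and Cacng7, of the same subfamily, by -3.19 ± 0.40 (adjusted p = 0.000305). Frrs1l, which assists AMPA receptor assembly and stood on no list, read 2.64 ± 0.95 in SVZ and 7.86 ± 0.47 in cerebellum (SD, n = 5), a difference of -5.22 ± 0.39 (adjusted p = 1.9e-06). Of the 17 AMPA list members 29.4% were called, 1 higher and 4 lower, against 1.03% higher and 4.47% lower over all genes, and their median was 0.05 against 0.07. Of the same 17 genes, 4 passed after adjustment for spike-in level and 4 on dropping cerebellum 4 and 5. Of these 6 genes the call was lost after adjustment for spike-in level for Gria1 (adjusted p = 0.181), and on dropping cerebellum 4 and 5 for Gria1 (adjusted p = 0.0609).

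The other transmitter and lipid receptor genes described here were lower in SVZ. The GABA-A receptor subunit gene Gabra4 read 2.26 ± 0.79 in SVZ and 5.57 ± 0.70 in cerebellum (SD, n = 5), a difference of -3.31 ± 0.44 (adjusted p = 0.000491), and Gabra2 differed by -3.02 ± 0.67 (adjusted p = 0.0175) with 1 SVZ array among the cerebellum values. P2ry1, a receptor for extracellular ADP, differed by -2.22 ± 0.30 (adjusted p = 0.000517), and Grin3a, an NMDA receptor subunit gene, by -1.83 ± 0.39 (adjusted p = 0.0129). Lpar1, a receptor for lysophosphatidic acid, read 1.46 ± 0.46 in SVZ and 4.92 ± 0.87 in cerebellum, a difference of -3.46 ± 0.40 (adjusted p = 0.000131). In the list of 32 metabotropic, NMDA, kainate, GABA and purine receptors 2 were higher (Grin2c and Grm3) and 5 lower, 21.9% in all against 5.51% over all genes. The number higher was 1 without SVZ 1, SVZ 2, SVZ 4, SVZ 5, cerebellum 3 or cerebellum 4 and 0 without SVZ 3, cerebellum 1, cerebellum 2 or cerebellum 5. Here the call was lost after adjustment for spike-in level for Grin3a (adjusted p = 0.12), and on dropping cerebellum 4 and 5 for Grin3a (adjusted p = 0.064). The call was further lost with quantile normalization for Gabra2 (adjusted p = 0.0707) and Grin3a (0.0823).

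Genes for clearing or recycling transmitter were called in both directions. Slc6a11 read 7.64, 7.49, 6.47, 7.40 and 5.35 on SVZ arrays 1 to 5 and 3.68, 2.58, 1.48, 2.83 and 2.77 on cerebellum arrays 1 to 5. Slc38a1 read 4.23, 5.95, 0.78, 2.44 and 3.97 on SVZ arrays 1 to 5 and 8.89, 9.74, 8.70, 10.07 and 9.49 on cerebellum arrays 1 to 5. Neither gene had an overlap between regions. The GABA transporter gene Slc6a11 was 18.4-fold higher (4.20 ± 0.52, adjusted p = 0.000253) whereas Slc38a1, which carries glutamine, was 59.9-fold lower (-5.90 ± 0.85, adjusted p = 0.000967). The 1 further probe set of Slc6a11 differed by 0.12 and was not called, so that fold rests on a single probe set. Slc1a4, which carries serine and other neutral amino acids, was higher by 1.80 ± 0.38 (adjusted p = 0.0135), and Slc38a3, another glutamine transporter gene, by 1.43 ± 0.32 (adjusted p = 0.0182). A further probe set of Slc38a3 differed by 0.08 and was not called. Slc1a3, the glutamate transporter GLAST abundant in radial astroglia, was at a high level in both regions, 9.96 ± 0.31 in SVZ and 11.80 ± 0.76 in cerebellum, and differed by -1.83 ± 0.35 (adjusted p = 0.00767). Dao read 0.97, 3.74, 0.69, 1.43 and 4.13 on SVZ arrays 1 to 5 and 7.26, 7.54, 6.91, 7.64 and 7.29 on cerebellum arrays 1 to 5. This gene encodes D-amino acid oxidase, which breaks down D-serine, and its SVZ arrays all lay below its cerebellum arrays (-5.14 ± 0.57, adjusted p = 0.000105). In the transport list 5 of 24 were higher and 2 lower, 29.2% in all against 5.51% over all genes. The number higher was 3 without SVZ 2, SVZ 4, cerebellum 1, cerebellum 3 or cerebellum 5. Of the same 24 genes, 1 passed after adjustment for spike-in level and 4 on dropping cerebellum 4 and 5. Among these the call was lost after adjustment for spike-in level for Slc38a1 (adjusted p = 0.0792), Slc1a4 (0.0572), Slc38a3 (0.21) and Slc1a3 (0.296), and on dropping cerebellum 4 and 5 for Slc1a3 (adjusted p = 0.0627). Calls were also lost on averaging all probe sets for Slc1a4 (adjusted p = 0.12) and with a trended and robust spread for Slc38a3 (adjusted p = 0.0767).

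**Figure D3:**
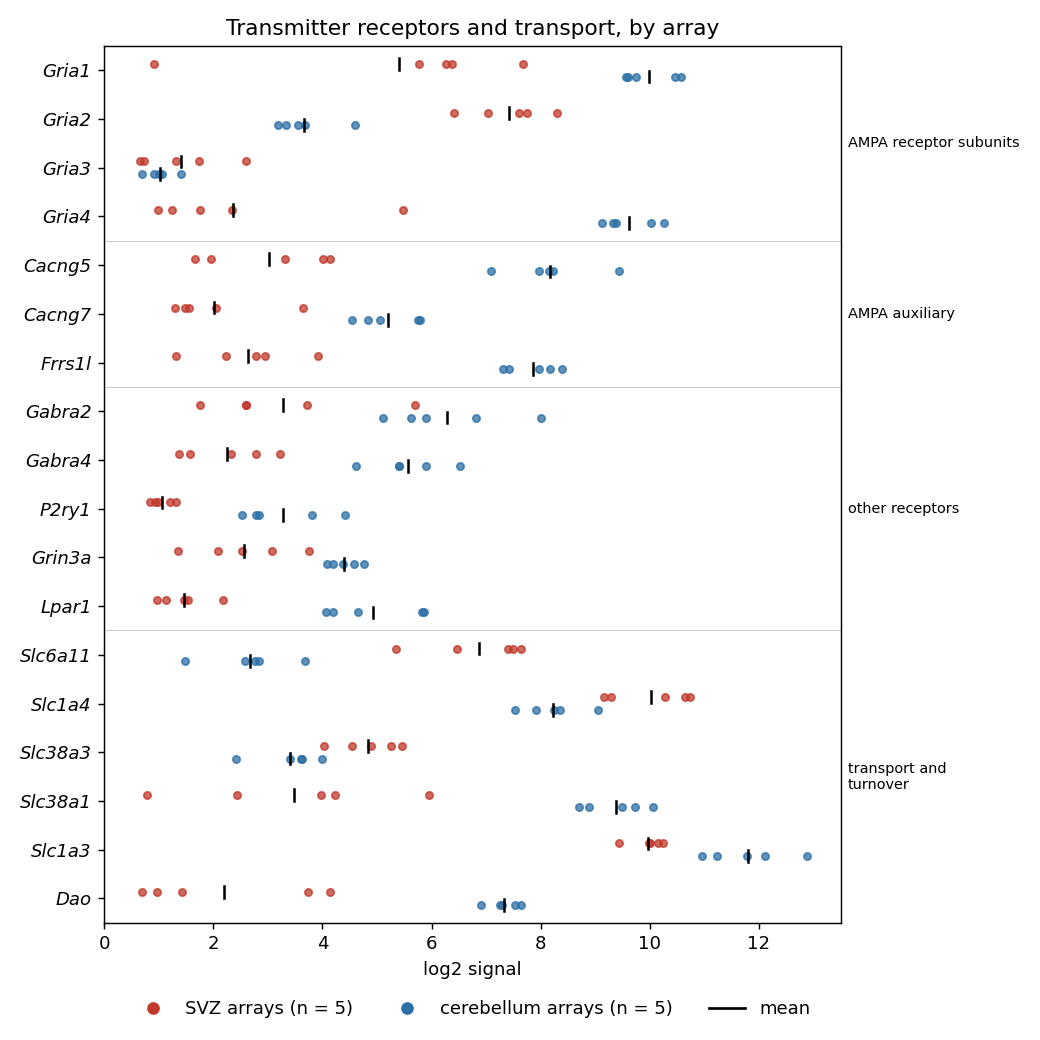
Log2 signal (x axis) of genes for transmitter receptors and transport (y axis), with 1 point per array, red for the 5 SVZ arrays, blue for the 5 cerebellum arrays, and a black bar at the mean of each group. Gria2, Slc6a11, Slc1a4 and Slc38a3 lie higher in SVZ, and Gria4, Cacng5, Frrs1l, Slc38a1 and Dao lie lower there with no overlap.

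Ncan, Bcan, Gpc5 and Hapln1, genes of proteoglycans and their link protein, were higher in SVZ. Lecticans such as neurocan and brevican are chondroitin sulfate proteoglycans that bind hyaluronan, link proteins such as Hapln1 hold them there, and glypicans are heparan sulfate proteoglycans of the cell surface. Ncan read 8.66, 8.76, 8.39, 8.37 and 8.38 on SVZ arrays 1 to 5 and 5.53, 3.64, 1.64, 3.87 and 2.23 on cerebellum arrays 1 to 5. Gpc5 read 7.26, 5.36, 6.60, 7.80 and 5.59 on SVZ arrays 1 to 5 and 2.75, 0.85, 0.89, 0.90 and 0.62 on cerebellum arrays 1 to 5. The 5 SVZ arrays of both genes stood above all cerebellum arrays, and cerebellum 1 was the highest cerebellum array for Gpc5. Ncan was 35-fold higher (5.13 ± 0.59, adjusted p = 0.000143) and Gpc5 40-fold (5.32 ± 0.52, adjusted p = 3.39e-05). Bcan, the brevican gene, was higher by 3.89 ± 0.39 (adjusted p = 4.5e-05) and Hapln1 by 3.19 ± 0.60 (adjusted p = 0.00622). The direction was not shared by all members, since Gpc6 differed by -2.75 ± 0.58 (adjusted p = 0.0123) and Tnc, the gene of the glycoprotein tenascin-C found in germinal zones, by -3.57 ± 0.67 (adjusted p = 0.00657). A further probe set of Tnc differed by -0.378 and was not called. Of 31 members 6 were higher and 2 lower, 25.8% in all against 5.51% over all genes, and the list median was 0.42. Of the same 31 genes, 3 passed after adjustment for spike-in level and 4 on dropping cerebellum 4 and 5. In this group the call was lost after adjustment for spike-in level for Hapln1 (adjusted p = 0.189), Gpc6 (0.362) and Tnc (0.224), and on dropping cerebellum 4 and 5 for Hapln1 (adjusted p = 0.0558), Gpc6 (0.114) and Tnc (0.0699).

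In sulfate chemistry the donor enzyme and 1 sulfotransferase were higher and another sulfotransferase was lower. Papss2 read 7.92, 6.44, 6.84, 6.87 and 5.65 on SVZ arrays 1 to 5 and 3.17, 1.54, 0.75, 2.86 and 2.04 on cerebellum arrays 1 to 5. Chst1 read 8.11, 8.46, 7.08, 7.16 and 7.42 on SVZ arrays 1 to 5 and 5.78, 2.48, 2.69, 2.29 and 2.42 on cerebellum arrays 1 to 5. Papss2 makes the activated sulfate that sulfotransferases use, Chst1 sulfates keratan sulfate, and for both every SVZ array exceeded every cerebellum array. Cerebellum 1 was set apart from the other 4 cerebellum arrays for Chst1. The differences were 4.67 ± 0.54, adjusted p = 0.000143 for Papss2 and 4.51 ± 0.71, adjusted p = 0.0019 for Chst1. Ust, which sulfates uronic acid in chondroitin and dermatan sulfate and was named after its value was seen, read 1.00 ± 0.22 in SVZ and 4.82 ± 0.74 in cerebellum and differed by -3.82 ± 0.32 (adjusted p = 8.76e-06). Among 33 genes of glycan sulfation and proteoglycan synthesis, a list without Papss2 and Ust, Chst1 was the 1 higher gene and Sulf1 and Chst10 the 2 lower ones. That is 9.09% in all against 5.51% over all genes. The number lower was 1 without SVZ 1, SVZ 4, SVZ 5, cerebellum 1 or cerebellum 3 and 0 without SVZ 3, cerebellum 2, cerebellum 4 or cerebellum 5. Of Papss2, Chst1 and Ust, the call was lost after adjustment for spike-in level for Chst1 (adjusted p = 0.132). Of the 33 listed genes, 0 passed after that adjustment and 1 on dropping cerebellum 4 and 5.

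Other matrix genes named here were mostly lower. Sparc, a matricellular protein gene, read 9.43 ± 0.43 in SVZ and 11.08 ± 0.30 in cerebellum (-1.65 ± 0.23, adjusted p = 0.000648), and Timp4, an inhibitor of metalloproteases, read 9.15 ± 0.43 in SVZ and 11.58 ± 0.23 in cerebellum (-2.42 ± 0.34, adjusted p = 0.000783), so both remained bright in SVZ. Spock3, which encodes a testican proteoglycan, was near the array medians in SVZ at 0.93 ± 0.31 and differed by -2.84 ± 0.22 (adjusted p = 3.57e-06). A further probe set of Spock3 differed by 0.13, of the opposite sign, and was not called. Col2a1 differed by -5.19 ± 0.22 (adjusted p = 1.82e-08). Cst3, the gene of the protease inhibitor cystatin C, was higher by 1.41 ± 0.19 (adjusted p = 0.000629) at a level of 11.67 ± 0.34 in SVZ and 10.26 ± 0.24 in cerebellum. Cst3 is also expressed in microglia, whose list was higher on all SVZ arrays as given above. 

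Adhesion genes were called in both directions, among them Cadm1 and Astn1 upward and Negr1, Cdh22 and Pcdh20 downward. Cadm1 read 8.63, 9.06, 8.88, 8.17 and 7.97 on SVZ arrays 1 to 5 and 5.00, 2.60, 2.04, 2.52 and 3.25 on cerebellum arrays 1 to 5. Astn1 read 6.56, 7.29, 7.27, 7.50 and 7.88 on SVZ arrays 1 to 5 and 3.26, 1.72, 0.70, 1.46 and 3.51 on cerebellum arrays 1 to 5. Both were higher on every SVZ array. Cadm1, a synaptic and glial adhesion molecule of the immunoglobulin superfamily, differed by 5.46 ± 0.47, adjusted p = 9.35e-06, and Astn1, an astrotactin that serves neuron migration along glial fibres, by 5.17 ± 0.57, adjusted p = 9.28e-05. Vcam1, a ligand of integrins, was higher by 1.61 ± 0.35 (adjusted p = 0.0154). Lower in SVZ were Negr1 (-3.64 ± 0.78, adjusted p = 0.0141), Ncam2 (-2.21 ± 0.40, adjusted p = 0.00475) and the neuroligin gene Nlgn3 (-2.42 ± 0.47, adjusted p = 0.00758). In the same direction the cadherin gene Cdh22 differed by -3.18 ± 0.39 (adjusted p = 0.000247) and the protocadherin gene Pcdh20 by -3.02 ± 0.19 (adjusted p = 5.19e-07). These 2 were the only called genes of 35 on the cadherin and protocadherin list (5.71%, near the 5.51% over all genes), and 20 of the 35 had a positive difference. Of 41 members of the immunoglobulin adhesion list, 3 were higher and 6 lower (22.0%, against 5.51% over all genes), and the number higher was 5 without SVZ 2. Of the same 41 genes, 5 passed after adjustment for spike-in level and 7 on dropping cerebellum 4 and 5. Among these genes the call was lost after adjustment for spike-in level for Negr1 (adjusted p = 0.108) and Nlgn3 (0.0531). The same held on averaging all probe sets for Vcam1 (adjusted p = 0.0561).

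Guidance genes also differed in both directions. Nrp1, a receptor for class III semaphorins and VEGF, was 9.28-fold higher (3.21 ± 0.66, adjusted p = 0.011), and the netrin gene Ntn4 was higher by 2.90 ± 0.53 (adjusted p = 0.0052). A further probe set of Ntn4 differed by 0.23 and was not called. The ephrin gene Efnb2 differed by -3.34 ± 0.58 (adjusted p = 0.00376) and the semaphorin receptor gene Plxna2 by -3.11 ± 0.54 (adjusted p = 0.00382). No array of one region overlapped the other for any of these 4 genes, although Plxna2 on SVZ 4 (4.24) came close to the lowest cerebellum value (4.26). Over 49 guidance ligands and receptors 4 were higher and 3 lower, 14.3% in all against 5.51% over all genes. The number higher was 2 without cerebellum 4 or cerebellum 5. Of the 4 genes the call was lost after adjustment for spike-in level for Nrp1 (adjusted p = 0.154), Ntn4 (0.0563), Efnb2 (0.166) and Plxna2 (0.0564), and on dropping cerebellum 4 and 5 for Nrp1 (adjusted p = 0.0711).

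**Figure D4:**
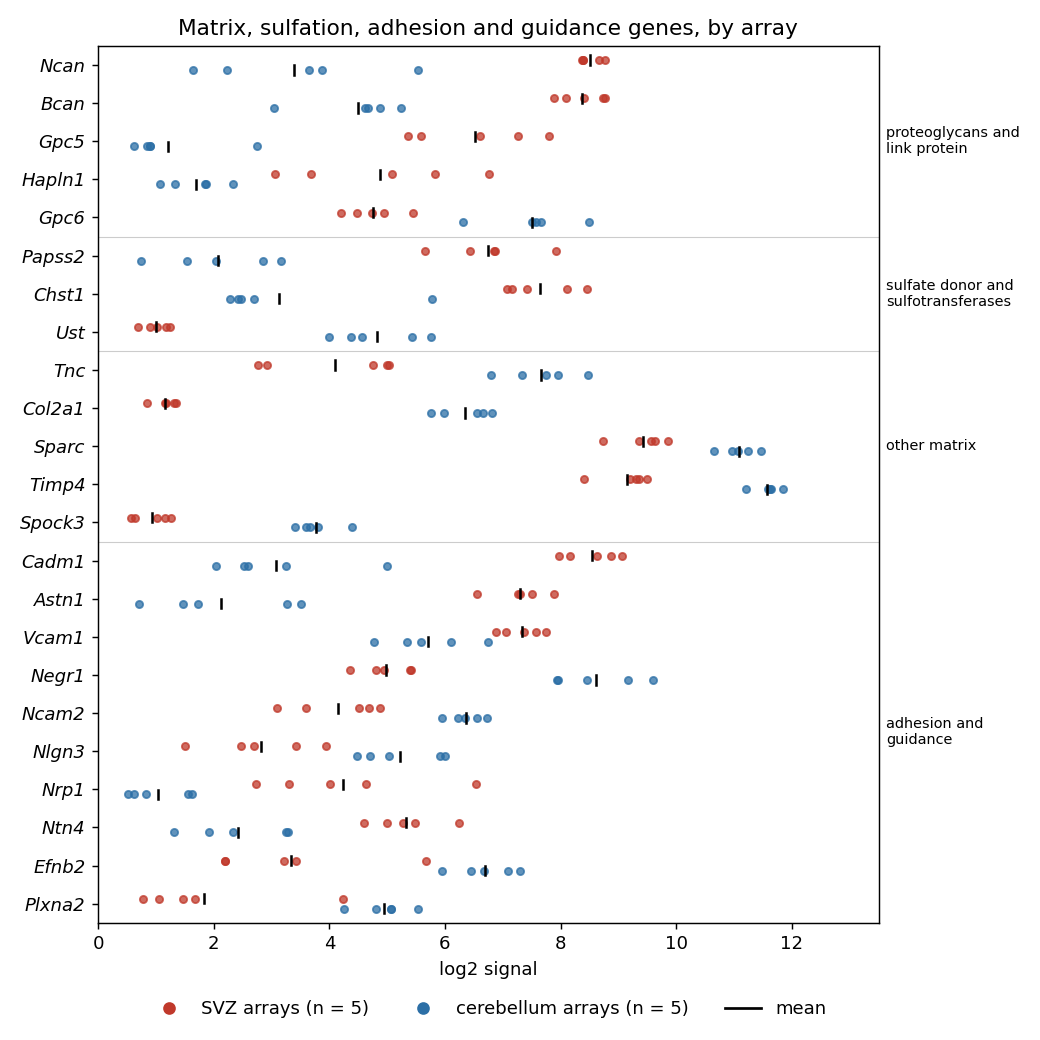
Log2 signal (x axis) of genes for matrix, sulfation, adhesion and guidance (y axis), with 1 point per array, red for the 5 SVZ arrays, blue for the 5 cerebellum arrays, and a black bar at each mean. Ncan, Bcan, Gpc5, Papss2, Chst1, Cadm1 and Astn1 separate upward in SVZ, and Gpc6, Ust, Tnc, Col2a1, Negr1 and Efnb2 separate downward.

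Of the second messenger genes described here, 1 target of cyclic AMP was higher in SVZ. A phosphodiesterase gene of cyclic AMP was lower, as were genes of cyclic GMP signalling. Rapgef3 read 8.88, 9.95, 9.77, 8.62 and 9.10 on SVZ arrays 1 to 5 and 6.35, 5.33, 3.09, 4.37 and 4.95 on cerebellum arrays 1 to 5. Gucy1a1 read 3.43, 5.06, 4.60, 1.04 and 4.49 on SVZ arrays 1 to 5 and 7.45, 7.92, 7.68, 8.02 and 7.59 on cerebellum arrays 1 to 5. Rapgef3, an exchange factor for Rap GTPases that cyclic AMP activates, was higher on every SVZ array (21.8-fold, 4.45 ± 0.49, adjusted p = 9.28e-05). Gucy1a1, a subunit of the guanylate cyclase that nitric oxide activates, was lower on every SVZ array (-4.01 ± 0.65, adjusted p = 0.00233). Prkg1, a kinase that cyclic GMP activates, differed by -3.15 ± 0.31 (adjusted p = 3.39e-05), and Pde7b, a phosphodiesterase that breaks down cyclic AMP, by -3.13 ± 0.26 (adjusted p = 5.7e-06). Gnb4 read 2.69 ± 1.63 in SVZ and 7.67 ± 0.21 in cerebellum and differed by -4.98 ± 0.67 (adjusted p = 0.000507). Over 34 listed genes the calls came to 1 higher and 5 lower (17.6%, against 5.51% over all genes), and the lower ones included genes of both messengers. Of the 5 genes whose differences are given here, the call was lost after adjustment for spike-in level for Gucy1a1 (adjusted p = 0.118). Of the 34 listed genes, 3 passed after that adjustment and 4 on dropping cerebellum 4 and 5.

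For glucose use, the gene for uptake was higher in SVZ and 3 genes for later steps were lower. Slc2a1 read 9.50, 11.04, 9.27, 9.73 and 8.82 on SVZ arrays 1 to 5 and 7.47, 7.94, 7.86, 8.02 and 8.05 on cerebellum arrays 1 to 5. Hk2 read 1.13, 3.80, 1.51, 1.80 and 2.49 on SVZ arrays 1 to 5 and 6.03, 7.33, 6.43, 7.42 and 5.84 on cerebellum arrays 1 to 5. Slc2a1, the glucose transporter of astroglia and brain vessels, was higher on all SVZ arrays. The endothelial and pericyte markers averaged 2.35 in SVZ and 1.68 in cerebellum, with overlapping array ranges as given above, and the part of such cells was not tested. Hk2, a hexokinase that traps glucose in the cell, was lower on all SVZ arrays. The differences were 1.80 ± 0.37, adjusted p = 0.0109 for Slc2a1, and -4.46 ± 0.53, adjusted p = 0.000171 for Hk2. Ldha, a lactate dehydrogenase subunit gene, differed by -2.91 ± 0.57 (adjusted p = 0.00791) and Pfkm, a phosphofructokinase gene, by -1.57 ± 0.34 (adjusted p = 0.0147). In the list of 32 genes 1 was higher and 3 were lower, 12.5% in all against 5.51% over all genes, with a median of -0.31. Of the 4 genes the call was lost after adjustment for spike-in level for Ldha (adjusted p = 0.27) and Pfkm (0.316), and on dropping cerebellum 4 and 5 for Slc2a1 (adjusted p = 0.0574), Ldha (0.0614) and Pfkm (0.118). It was also lost with quantile normalization for Pfkm (adjusted p = 0.0537).

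Lipid genes were called in both directions, and 2 retinoid genes were called lower. Acsl6, which activates long-chain fatty acids, was higher by 2.04 ± 0.32 (adjusted p = 0.00159), and Abca1, which exports cholesterol, by 1.92 ± 0.37 (adjusted p = 0.00789). Lower were Elovl2, an elongase of polyunsaturated fatty acids (-2.33 ± 0.46, adjusted p = 0.00876), Hadhb, a subunit of the mitochondrial trifunctional protein (-1.35 ± 0.29, adjusted p = 0.0149), and Fabp7, the brain fatty acid binding protein gene (-2.46 ± 0.22, adjusted p = 1.64e-05). Further probe sets of Abca1 (0.314 to 1.21) and Hadhb (-1.17 to 0.656) were not called. Fabp7 stayed among the brighter genes of both regions, at 9.59 ± 0.31 in SVZ and 12.05 ± 0.13 in cerebellum. Aldh1a1 read 2.71, 2.32, 2.71, 0.70 and 2.29 on SVZ arrays 1 to 5 and 8.32, 7.61, 6.93, 7.04 and 7.13 on cerebellum arrays 1 to 5. SVZ 4 was lowest and no SVZ value came near those of cerebellum (38.3-fold, -5.26 ± 0.36, adjusted p = 1e-06). Rdh10, the retinol dehydrogenase that precedes it in retinoic acid synthesis, differed by -3.65 ± 0.57 (adjusted p = 0.00185). These 2 were the only called genes of 19 on the retinoic acid list, 10.5% against 4.47% lower over all genes. The list median was 0.134, and 12 of the 19 genes had a positive difference. Among enzymes of oxidative defence, Gsta4 (-1.88 ± 0.36, adjusted p = 0.00717), Nqo1 (-2.02 ± 0.44, adjusted p = 0.015) and Prdx2 (-1.37 ± 0.28, adjusted p = 0.00992) were lower. These were all 3 called of 30 listed, 10% against 4.47% lower over all genes. With dim genes left out, 643 of 4816 genes were lower, a larger share than over all genes. The list median was -0.87, where that of all genes with dim ones left out was -0.715. In this group the call was lost after adjustment for spike-in level for Acsl6 (adjusted p = 0.0764), Abca1 (0.0899), Elovl2 (0.18), Hadhb (0.219), Rdh10 (0.131), Gsta4 (0.219), Nqo1 (0.289) and Prdx2 (0.289), and on dropping cerebellum 4 and 5 for Elovl2 (adjusted p = 0.087), Hadhb (0.0943), Gsta4 (0.0502), Nqo1 (0.107) and Prdx2 (0.0798). The call was further lost with quantile normalization for Hadhb (adjusted p = 0.156) and Nqo1 (0.0823) and on averaging all probe sets for Acsl6 (adjusted p = 0.062), Hadhb (0.223) and Prdx2 (0.103).

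Channel and carrier genes of astroglia were likewise called in both directions. Kcnk1 read 6.46, 6.40, 8.01, 9.28 and 6.44 on SVZ arrays 1 to 5 and 2.86, 1.51, 2.42, 1.74 and 6.04 on cerebellum arrays 1 to 5. Slco1c1 read 8.27, 8.03, 8.00, 8.82 and 7.47 on SVZ arrays 1 to 5 and 4.20, 0.72, 4.41, 3.38 and 6.99 on cerebellum arrays 1 to 5. All SVZ arrays exceeded all cerebellum arrays for Kcnk1, a leak potassium channel of astrocytes, and for Slco1c1, a carrier of thyroid hormone in astroglia and brain vessels. The differences were 4.40 ± 0.79, adjusted p = 0.00451 for Kcnk1 and 4.18 ± 0.79, adjusted p = 0.00671 for Slco1c1, and the peptide carrier gene Slc15a2 was higher by 3.13 ± 0.48 (adjusted p = 0.00157). Lower were the inward rectifier genes Kcnj3 (-2.85 ± 0.21, adjusted p = 1.7e-06) and Kcnj16 (-2.32 ± 0.51, adjusted p = 0.016) and the channel-interacting calcium sensor gene Kcnip3 (-2.42 ± 0.40, adjusted p = 0.00277). Slc14a1, which carries urea, differed by -3.40 ± 0.71 (adjusted p = 0.0123), Slc22a4, which carries ergothioneine, by -2.95 ± 0.62 (adjusted p = 0.0133), and the connexin gene Gjc3 by -4.01 ± 0.50 (adjusted p = 0.000254). In the potassium channel list 2 of 31 were higher and 4 lower, 19.4% in all against 5.51% over all genes. The number higher was 1 without SVZ 2, SVZ 4, SVZ 5, cerebellum 2, cerebellum 3, cerebellum 4 or cerebellum 5. In the list of water, gap junction and transport genes 2 of 23 were higher and 4 lower (26.1%), with a median of -0.56. Of these 9 genes the call was lost after adjustment for spike-in level for Kcnk1 (adjusted p = 0.0516), Slc15a2 (0.115), Kcnj16 (0.0975), Kcnip3 (0.132), Slc14a1 (0.227) and Slc22a4 (0.319), and on dropping cerebellum 4 and 5 for Slc14a1 (adjusted p = 0.0763) and Slc22a4 (0.105). Calls were also lost with quantile normalization for Kcnj16 (adjusted p = 0.0739) and Slc22a4 (0.0549).

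Septin4, Septin7, Tubb4a, Tuba1a and Vim were lower in SVZ and the microtubule regulator genes Stmn1 and Dclk1 higher, while most listed cytoskeletal genes were not called. Septin4 read 7.39, 8.41, 5.07, 6.66 and 5.84 on SVZ arrays 1 to 5 and 11.13, 11.66, 11.48, 11.73 and 11.82 on cerebellum arrays 1 to 5. Tubb4a read 1.99, 2.48, 1.63, 1.55 and 1.49 on SVZ arrays 1 to 5 and 5.97, 6.04, 7.11, 6.68 and 6.26 on cerebellum arrays 1 to 5. No SVZ value of either gene reached the cerebellum range. Septin4, a filament-forming GTPase of Bergmann glia, was 29.6-fold lower (-4.89 ± 0.56, adjusted p = 0.000139) and the beta tubulin gene Tubb4a 24-fold lower (-4.58 ± 0.25, adjusted p = 1.55e-07). Vim, the intermediate filament gene vimentin, differed by -3.61 ± 0.74, adjusted p = 0.0112, Septin7 by -1.95 ± 0.28, adjusted p = 0.00083, the kinesin gene Kif5c by -2.49 ± 0.40, adjusted p = 0.00211, and the alpha tubulin gene Tuba1a by -1.32 ± 0.24, adjusted p = 0.00477. Stmn1, which destabilises microtubules and is abundant in immature neurons, was higher by 2.07 ± 0.34 (adjusted p = 0.00249), and the doublecortin-like kinase gene Dclk1 by 1.25 ± 0.20 (adjusted p = 0.00211). In the intermediate filament, actin and myosin list 0 of 45 were higher and 6 lower, and in the microtubule list 2 of 35 and 5, which left 39 and 28 genes not called. The shares called were 13.3% and 20%, against 5.51% over all genes. For the microtubule list, the number lower was 3 without SVZ 4, SVZ 5, cerebellum 1, cerebellum 2, cerebellum 3, cerebellum 4 or cerebellum 5. Sv2b, a synaptic vesicle protein gene, differed by -4.47 ± 0.28 (adjusted p = 5.11e-07), and Pvalb and Calb1, calcium-binding proteins of cerebellar neurons, by -4.11 ± 0.46 and -1.52 ± 0.21 (adjusted p = 0.000115 and 0.000653), beside the neuron marker levels given above. Further probe sets of Calb1 (-0.214 to 0.04) and Kif5c (-1.38 to -0.078) were not called. Here the call was lost after adjustment for spike-in level for Vim (adjusted p = 0.365), Tuba1a (0.255) and Stmn1 (0.0738), and on dropping cerebellum 4 and 5 for Vim (adjusted p = 0.081) and Tuba1a (0.0587).

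The lists for the proteasome, the respiratory chain and ribosomes had medians below the 0.068 of all genes. Most of their members were bright, however, with an SVZ mean above 3 for 29 of 30, 41 of 41 and 34 of 42 genes. With dim genes left out, the median of all genes was -0.715. Against that value the proteasome median was lower, the respiratory chain median was near it and the ribosomal median was above it. A shift of these lists apart from that of bright genes was not tested. With dim genes left out 643 of 4816 genes were lower, a larger share than the 4.47% of all genes used below. The proteasome degrades ubiquitin-tagged proteins, and 6 of 30 proteasome and ubiquitin genes were lower (20%, against 4.47% over all genes) and 0 higher, with a median of -1.05. Psmc2 read 4.03, 6.02, 6.19, 5.04 and 4.25 on SVZ arrays 1 to 5 and 7.14, 7.41, 7.28, 7.01 and 7.46 on cerebellum arrays 1 to 5. The SVZ arrays of this proteasome ATPase gene all lay below the cerebellum arrays (-2.15 ± 0.41, adjusted p = 0.00652). Psma7 and Psmb6, which encode core subunits, differed by -2.02 ± 0.42, adjusted p = 0.0118, and -1.74 ± 0.38, adjusted p = 0.0162. With quantile normalization 2 of the 30 genes were called and the median was -0.66. After adjustment for spike-in level 0 were called (median -0.80), and 0 were called on dropping cerebellum 4 and 5 (median -1.01). None of 41 respiratory chain genes had a positive difference, and their median was -0.85. Only 1 of them passed singly (2.44%, against 4.47% lower over all genes), and the number lower was 2 without SVZ 2 and 0 without SVZ 3, SVZ 4, cerebellum 1, cerebellum 3 or cerebellum 5. With quantile normalization the respiratory chain median was -0.50 and 3 genes had a positive difference. The median was -0.44 for 42 cytosolic ribosomal protein genes, of which 1 was called, lower (2.38%, against 4.47% lower over all genes). Of 33 genes for the primary cilium, the organelle where hedgehog signals are read, 5 were lower (15.2%, against 4.47% over all genes) and 0 higher. The number lower was 3 without SVZ 1, SVZ 3, SVZ 4, cerebellum 3 or cerebellum 4 and 2 without cerebellum 2 or cerebellum 5. Kifap3, a subunit of the anterograde motor, differed by -2.08 ± 0.40, adjusted p = 0.00721, and Dync2li1, of the retrograde motor, by -1.99 ± 0.37, adjusted p = 0.00622. The share of probe sets above 3 was lower on every SVZ array, as given above, and its part in these shifts was not tested. Of the 5 named genes the call was lost after adjustment for spike-in level for Psmc2 (adjusted p = 0.227), Psma7 (0.365), Psmb6 (0.233), Kifap3 (0.179) and Dync2li1 (0.152), and on dropping cerebellum 4 and 5 for Psmc2 (adjusted p = 0.0502), Psma7 (0.0862), Psmb6 (0.087), Kifap3 (0.0601) and Dync2li1 (0.0505). The same held with quantile normalization for Psmb6 (adjusted p = 0.0799) and Kifap3 (0.0667).

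**Figure D5:**
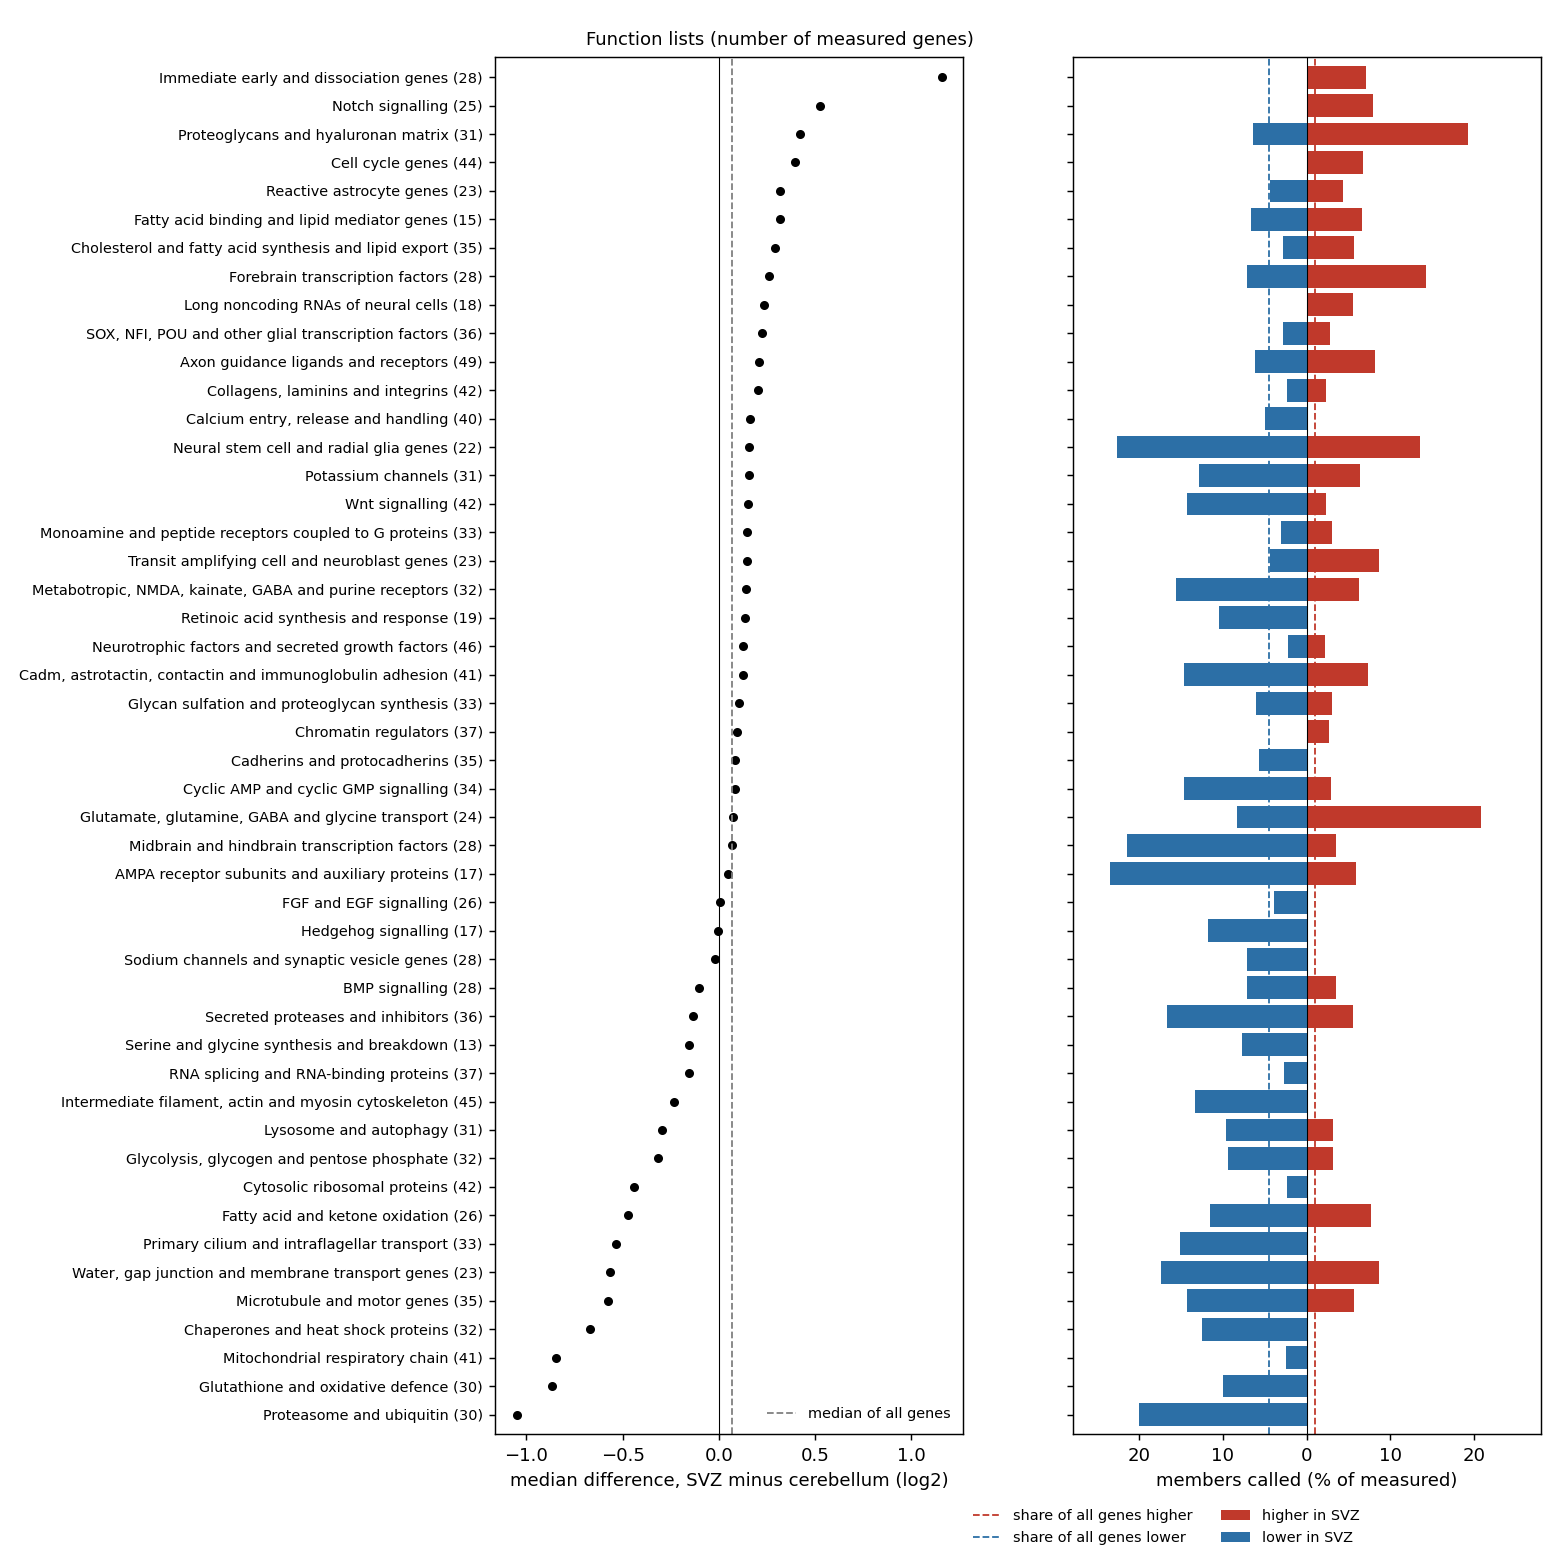
Left, the median difference between SVZ and cerebellum (x axis, log2) over the measured genes of each function list (y axis, number of genes in brackets), with a dashed line at the median of all genes. That line stands at 0.068, while with dim genes left out the median of all genes was -0.715. Right, the share of each list called higher (red) or lower (blue) in percent, with dashed lines at the shares of all genes (1.03% and 4.47%). With dim genes left out, 117 of 4816 genes were higher and 643 lower. On the left the immediate early and dissociation list is highest and the proteasome list lowest, and on the right the proteoglycan and transmitter transport lists have the longest red bars.

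Both patterning lists, of forebrain factors and of midbrain and hindbrain factors, had called genes in both directions. Meis2 (3.12 ± 0.56, adjusted p = 0.00483), Lhx2 (2.71 ± 0.56, adjusted p = 0.0115) and Emx2 (2.00 ± 0.31, adjusted p = 0.00157), homeodomain factors of the forebrain, were higher in SVZ on all arrays, as was Nr2e1. Their cerebellum means of 0.73, 0.91 and 0.80 were near the array medians. Further probe sets of Meis2 differed by 0.436 to 1.66 and were not called. The lower members of the forebrain list were the largest lower calls of either list, namely Hopx, a homeodomain protein without DNA binding (-5.15 ± 0.60, adjusted p = 0.00016), and Zic1, whose values and unstable call are given above. Hopx and Zic1, the only lower calls of the forebrain list, also stand on the marker list of Bergmann glia and cerebellar astrocytes. On the midbrain and hindbrain list Pax3, a paired box factor, differed by -3.70 ± 0.25 (adjusted p = 8.58e-07) and Zic2 by -3.23 ± 0.69 (adjusted p = 0.0138), while Sall1 was higher by 3.21 ± 0.56 (adjusted p = 0.00385). Sall1 is also a transcription factor of microglia, and its further probe set differed by 0.25 and was not called. Of 28 forebrain factors 4 were higher and 2 lower, and of 28 midbrain and hindbrain factors 1 was higher and 6 lower. These are 21.4% and 25% in all, against 5.51% over all genes. For the forebrain list the number lower was 1 without SVZ 1, SVZ 3, SVZ 4, cerebellum 1, cerebellum 2, cerebellum 3, cerebellum 4 or cerebellum 5. Of the forebrain factors, 1 passed after adjustment for spike-in level and 4 on dropping cerebellum 4 and 5. Of the midbrain and hindbrain factors, 2 passed after adjustment for spike-in level and 4 on dropping cerebellum 4 and 5. Of these genes the call was lost after adjustment for spike-in level for Meis2 (adjusted p = 0.102), Lhx2 (0.208), Emx2 (0.107), Nr2e1 (0.0569), Zic2 (0.459) and Sall1 (0.2), and on dropping cerebellum 4 and 5 for Lhx2 (adjusted p = 0.0992) and Zic2 (0.124).

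In the Wnt, BMP and Notch pathways, genes for receptors, ligands and inhibitors were called. Wnt proteins act through Frizzled receptors, of which Fzd2 was higher and Fzd1 lower. Fzd2 read 7.68, 6.99, 7.42, 8.52 and 7.0 on SVZ arrays 1 to 5 and 3.08, 1.34, 1.72, 2.63 and 3.19 on cerebellum arrays 1 to 5. Fzd1 read 4.36, 5.52, 4.11, 2.81 and 5.92 on SVZ arrays 1 to 5 and 7.19, 8.25, 7.61, 9.12 and 8.20 on cerebellum arrays 1 to 5. Both pairs of groups were separate, and the differences were 5.13 ± 0.42, adjusted p = 5.63e-06 for Fzd2, and -3.53 ± 0.54, adjusted p = 0.00157 for Fzd1. Further probe sets of Fzd2 differed by 0.99 to 1.49 and were not called. Sfrp2 and Wif1, secreted Wnt inhibitors, differed by -2.13 ± 0.29 (adjusted p = 0.000495) and -1.86 ± 0.35 (adjusted p = 0.00682). In the Wnt list 1 of 42 was higher and 6 were lower, 16.7% in all against 5.51% over all genes. The number higher was 2 without SVZ 1 or SVZ 3 and the number lower was 3 without SVZ 3, SVZ 5, cerebellum 2 or cerebellum 5. Among BMP genes the ligand Bmp5 (-3.56 ± 0.48, adjusted p = 0.000495) and the receptor Bmpr1a (-1.04 ± 0.21, adjusted p = 0.0104) were lower and the target Id3 (2.42 ± 0.33, adjusted p = 0.000655) was higher. These were all the calls among 28 BMP genes, 1 higher and 2 lower, 10.7% in all against 5.51% over all genes. Without SVZ 2 the number higher was 2 and the number lower was 5. Notch signalling, which keeps stem cells undifferentiated, had 2 genes higher and 0 lower of 25, 8% against 1.03% higher over all genes. Nrarp read 5.57, 6.56, 6.83, 7.41 and 6.59 on SVZ arrays 1 to 5 and 3.36, 2.35, 2.73, 3.11 and 2.29 on cerebellum arrays 1 to 5. Nrarp, a target and feedback inhibitor of Notch, was higher on all SVZ arrays (3.82 ± 0.41, adjusted p = 7.32e-05), as was the ligand gene Dner (2.97 ± 0.43, adjusted p = 0.000892). Of the genes of these pathways whose differences are given, the call was lost after adjustment for spike-in level for Fzd1 (adjusted p = 0.107), Wif1 (0.219), Bmpr1a (0.124) and Dner (0.0581), and on dropping cerebellum 4 and 5 for Bmpr1a (adjusted p = 0.0609). It was also lost with quantile normalization for Bmpr1a (adjusted p = 0.0805), with a trended and robust spread for Bmpr1a (adjusted p = 0.0732) and with dim genes left out for Bmpr1a (adjusted p = 0.0513).

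Genes used to describe neural stem cells were called in both directions. Of 22 neural stem cell and radial glia genes 3 were higher and 5 lower, 36.4% in all against 5.51% over all genes. Prom1, which encodes prominin, was higher by 3.55 ± 0.77 (adjusted p = 0.0149), with cerebellum 1 (3.86) inside the SVZ range and the other 4 cerebellum arrays below it. Id3 and Nr2e1 were the other higher members, and Vim, Fabp7, Slc1a3 and Tnc, abundant in Bergmann glia too, were among those lower. In the cell cycle list 3 of 44 were higher (6.82%, against 1.03% over all genes) and 0 lower. These included Mki67 (4.74 ± 0.75, adjusted p = 0.00189) and the cyclin gene Ccnd2, which differed by 2.98 ± 0.66 (adjusted p = 0.016) with an overlap between the groups. Genes switched on early by stimulation or by tissue dissociation had the highest median of the 48 function lists, 1.16 over 28 genes, of which 2 were higher (Nr4a1 and Nr4a2) and 0 lower. That is 7.14% against 1.03% higher over all genes. For this list the number higher was 6 without SVZ 1 and 1 without SVZ 4, SVZ 5, cerebellum 1, cerebellum 2, cerebellum 3 or cerebellum 4. Nr4a2, a nuclear receptor gene, was higher by 3.58 ± 0.70 (adjusted p = 0.00811). Its further probe sets differed by 0.304 to 2.13 and were not called. Of the higher genes the call was lost after adjustment for spike-in level for Prom1 (adjusted p = 0.373), Nr2e1 (0.0569) and Nr4a2 (0.123), and on dropping cerebellum 4 and 5 for Prom1 (adjusted p = 0.121) and Nr4a2 (0.0614). The call was further lost on averaging all probe sets for Ccnd2 (adjusted p = 0.183).

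Some called genes belong to cells other than astroglia. Csf1r read 5.97, 8.79, 10.86, 8.25 and 10.51 on SVZ arrays 1 to 5 and 3.84, 3.52, 4.10, 1.85 and 4.37 on cerebellum arrays 1 to 5. This receptor gene of microglia was higher on every SVZ array (5.34 ± 0.92, adjusted p = 0.0034), as were Laptm5 (4.92 ± 0.85, adjusted p = 0.00345) and the complement gene C1qa (3.46 ± 0.72, adjusted p = 0.0116). Of 18 microglia and macrophage markers 5 were higher (27.8%, against 1.03% over all genes) and 0 lower, with a median of 2.14. The number higher was 9 without SVZ 1 and 3 without SVZ 5, cerebellum 2, cerebellum 4 or cerebellum 5. Of the same 18 genes, 0 passed after adjustment for spike-in level and 2 on dropping cerebellum 4 and 5. Grn, the progranulin gene, which microglia express strongly, was higher by 1.28 ± 0.27 (adjusted p = 0.0123) with overlapping arrays. Pdgfrb, a pericyte receptor gene, was higher by 2.88 ± 0.62 (adjusted p = 0.0145), Olig2 by 1.03 ± 0.23 (adjusted p = 0.0158) with an overlap, and Cnp, an oligodendrocyte gene bright in both regions, differed by -2.02 ± 0.26 (adjusted p = 0.000315). Cnp was the only called gene of 13 on the oligodendrocyte list. Its direction was not that of most members, since 11 of the 13 had a positive difference and the list median was 0.142. The list averaged 2.25 in SVZ and 1.88 in cerebellum, with overlapping array ranges. S100b, expressed in astrocytes and oligodendrocytes, differed by -3.41 ± 0.42 (adjusted p = 0.000254). Ttr read 8.46, 7.01, 5.96, 10.35 and 10.21 on SVZ arrays 1 to 5 and 11.76, 6.87, 13.45, 13.39 and 13.99 on cerebellum arrays 1 to 5. This choroid plexus transport protein gene ranged widely within each region and did not pass (-3.49 ± 1.25, adjusted p = 0.127), though it did without cerebellum 2 (adjusted p = 0.0107). Calml4, of the same list, differed by -3.41 ± 1.23 (adjusted p = 0.13) and did not pass. Of these genes the call was lost after adjustment for spike-in level for Csf1r (adjusted p = 0.105), Laptm5 (0.182), C1qa (0.219), Grn (0.162), Pdgfrb (0.186) and Olig2 (0.471), and on dropping cerebellum 4 and 5 for C1qa (adjusted p = 0.0952) and Olig2 (0.113). Calls were also lost on averaging all probe sets for Grn (adjusted p = 0.274).

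Whether a difference from cerebellum was larger in SVZ than in hippocampus was tested directly between those 2 regions. Of the 1002 called genes 3 passed that test, where 4 of all genes (0.022%) passed and 1277 had an unadjusted p under 0.05. They were chosen for naming after their values were seen. Them4 read 4.25, 4.13, 5.03, 5.12 and 4.19 on SVZ arrays 1 to 5, 2.72, 2.35, 1.37, 2.87 and 1.97 on hippocampus arrays and 7.44, 7.20, 7.72, 8.07 and 7.78 on cerebellum arrays. Gsdme read 7.31, 6.77, 6.78, 7.75 and 6.01 on SVZ arrays 1 to 5, 4.41, 4.79, 4.26, 5.60 and 4.89 on hippocampus arrays and 8.98, 9.0, 8.77, 9.33 and 8.84 on cerebellum arrays. Them4, a thioesterase gene, and Gsdme, which encodes a pore-forming gasdermin, differed between SVZ and cerebellum by -3.10 ± 0.30 and -2.06 ± 0.31, and hippocampus lay lower than SVZ, so that SVZ minus hippocampus was 2.29 ± 0.30, adjusted p = 0.0216 for Them4 and 2.13 ± 0.31, adjusted p = 0.0295 for Gsdme. Kantr read 5.12, 4.78, 5.00, 4.75 and 4.46 on SVZ arrays 1 to 5, 6.37, 6.21, 6.21, 6.80 and 6.84 on hippocampus arrays and 5.88, 6.10, 6.34, 6.12 and 6.31 on cerebellum arrays. Kantr, a long noncoding RNA gene, was lowest in SVZ (-1.33 ± 0.18 against cerebellum, and -1.66 ± 0.18, adjusted p = 0.00335 against hippocampus). On averaging all probe sets the difference of Kantr from cerebellum was 0.05 (adjusted p = 0.936). The number passing was 6 without SVZ 1 and 1 without SVZ 3, SVZ 4 or hippocampus 5, 1 with a spread per region, and 0 on averaging all probe sets or with a trended and robust spread. For every other gene named here the test between SVZ and hippocampus did not pass, so no difference above is called particular to SVZ.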

How the data were processed

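Values of 15 Affymetrix mouse arrays, 5 per region, were used as the authors deposited them. The authors normalized them with RMA, per the submitters' processing notes, with a version and log base not given in the sources used here. Deposited values were read as log2. Per the labels' protocols, Trizol extraction and RNeasy Micro clean-up preceded WT-Ovation Pico amplification and biotin labelling. Of 45101 probe sets 34958 had 1 gene symbol, 932 had several and 9211 had none listed. Entrez identifiers served to update 34754 symbols to current names, and 204 stayed as given. limma 3.58.1 in R 4.3.3 fitted region over all 15 arrays with no covariate and no filter, and Benjamini-Hochberg adjustment ran over 18194 genes. On simulated data only the median error of the fitted differences was checked, so that check does not bear on recovery or false calls. Among called genes 631 had 1208 further probe sets, of which 954 had the same sign, 304 were called in the same direction and 0 in the opposite one. Their values are given for some named genes only. The number of arrays limits the precision. Named genes are the 15 largest differences each way among called genes whose arrays do not overlap, up to 4 called genes per list and direction (or the 2 smallest p-values), and the sort genes. Of these, genes that lost the call with 1 array left out are not described, apart from Zic1 and Ptch1. The members, the 48 function lists, the 12 marker lists and the tests were chosen with earlier results of these data known. Promoter sequences are RefSeq's, GRCm38.p6. The alternatives covered normalization, centring, probe set choice, weights, spread, dim genes, thresholds, the replicate block and single arrays, with the spike-in level as a covariate, the omission of cerebellum 4 and 5, and the alternatives for SVZ against hippocampus added after the data were seen. Figures used matplotlib 3.10.9 and pandas 2.3.3 in Python 3.11.15.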

Additional observations from a re-analysis of the deposited data

Results flagged for a closer look

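A single array far from the other 4 of its group was found in 21 of the 294 sets of 5 arrays checked for the named genes, where chance alone gives about 1 in 20. The range of the other 4 arrays stands in brackets. On cerebellum 1 this held for Nr2e1 at 3.69 (0.90 to 1.60), Gpc5 at 2.75 (0.62 to 0.90), Chst1 at 5.78 (2.29 to 2.69), Gnb4 at 7.29 (7.73 to 7.80), Slc15a2 at 4.52 (3.17 to 3.55), Prom1 at 3.86 (0.53 to 1.24) and Cpe at 8.80 (7.73 to 7.97). On cerebellum 2 this held for Gpd2 at 4.50 (4.87 to 4.99). On cerebellum 3 this held for Acsl6 at 6.01 (6.63 to 6.87), Fabp7 at 12.27 (11.95 to 12.03), Kcnip3 at 5.16 (6.07 to 6.38) and Bcan at 3.05 (4.61 to 5.24). On SVZ 1 this held for Crym at 1.15 (3.75 to 4.42). On SVZ 2 this held for Mybpc1 at 2.94 (0.58 to 1.18). On SVZ 3 this held for Gli1 at 5.06 (1.79 to 2.73). On SVZ 4 this held for Aldh1a1 at 0.70 (2.29 to 2.71), Gria1 at 0.92 (5.77 to 7.68) and Plxna2 at 4.24 (0.78 to 1.67). On SVZ 5 this held for Gjc3 at 3.91 (0.39 to 1.34), Timp4 at 8.41 (9.20 to 9.50) and Pvalb at 2.66 (1.28 to 1.63). 

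The direct test between SVZ and hippocampus separated 3 genes called against cerebellum, with SVZ minus hippocampus at 2.13 for Gsdme, -1.66 for Kantr and 2.29 for Them4. On averaging all probe sets, none of the 3 passed (adjusted p = 0.42, 0.684 and 0.196).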

How the results depend on the processing

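The limits of the comparison are its 5 arrays per region, a larger spread in SVZ than in cerebellum, no detection calls, and dim genes whose folds are understated. Against 188 genes higher and 814 lower, the numbers higher and lower were 409 and 1152 with array weights, 340 and 1078 with a spread per region, 213 and 396 with quantile normalization, 117 and 643 with dim genes left out, 120 and 464 at more than 4-fold and an unadjusted p under 0.01, 71 and 297 on dropping cerebellum 4 and 5, and 41 and 148 after adjustment for spike-in level. Leaving out 1 array at a time gave 108 to 217 higher and 504 to 803 lower. Median centring (146 and 1040), all probe sets averaged (273 and 1080), only the 2 groups (203 and 1044) and a trended and robust spread (183 and 669) stayed within 1.5 times, and centring moved the median difference of all genes from 0.068 to -0.036. The number of called genes that also differed from hippocampus was 3, and 0 with all probe sets averaged or a trended and robust spread, 1 with a spread per region, and 1 to 6 with 1 array left out. Of 141 called genes named, 67 kept sign and call under all alternatives, 12 lost the call with quantile normalization, 38 on dropping cerebellum 4 and 5 and 69 after adjustment for spike-in level. Kantr turned to 0.0475 with all probe sets averaged, and Gfap to 0.16 on dropping cerebellum 4 and 5 and 0.52 after adjustment for spike-in level; the cause was not tested. Arrays share replicate numbers, and deviations of same-numbered SVZ and cerebellum arrays correlated by 0.027 to 0.111. Such low values cannot show whether same-numbered pools came from the same mice, which the labels do not state. The fit used did not pair them, and the fit with the replicate block called 199 and 812.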

Other observations

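Some further genes were chosen after their values were seen. The glycerol phosphate shuttle, which moves reducing power into mitochondria, showed its enzymes in opposite directions. Gpd1, the cytosolic enzyme, was lower in SVZ (-4.30 ± 0.86, adjusted p = 0.00908), and Gpd2, the mitochondrial enzyme, was higher (2.50 ± 0.46, adjusted p = 0.00594). Col9a3, a type IX collagen chain gene, was lower (-3.98 ± 0.89, adjusted p = 0.0172), as was Fmod, the gene of the keratan sulfate proteoglycan fibromodulin (-4.35 ± 0.60, adjusted p = 0.000621). Of 42 collagen genes 2 were lower, Col2a1 and Col9a3, and 0 higher, which is 4.76% against 4.47% lower over all genes. Crym, which binds thyroid hormone in the cell, was higher (2.80 ± 0.61, adjusted p = 0.0155), as was the carrier gene Slco1c1, and Slco4a1, another carrier of organic anions, was lower (-4.79 ± 0.60, adjusted p = 0.000289). Of these 6 genes the call was lost after adjustment for spike-in level for Gpd1 (adjusted p = 0.27), Gpd2 (0.138), Col9a3 (0.542) and Crym (0.192), and on dropping cerebellum 4 and 5 for Gpd1 (adjusted p = 0.0767), Col9a3 (0.133) and Crym (0.0948).

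Secreted and signalling genes chosen in the same way included Cpe, carboxypeptidase E of peptide processing (3.16 ± 0.23, adjusted p = 1.9e-06), the cytokine gene Il33 (3.04 ± 0.60, adjusted p = 0.00835) and the lysolipid carrier gene Mfsd2a (2.59 ± 0.40, adjusted p = 0.00174), all higher in SVZ. Il33 overlapped between the groups. Lower were Npy, the neuropeptide Y gene of the Bergmann glia list (-4.08 ± 0.38, adjusted p = 2.42e-05), and Smad3, a transducer of TGF-beta signals (-3.59 ± 0.69, adjusted p = 0.00712). By family, 9 of 76 mitochondrial ribosomal protein genes were called, all lower, which is 11.8% against 4.47% lower over all genes, with a family median of -1.04. With dim genes left out, the median of all genes was -0.715 and 643 of 4816 genes were lower, a larger share than 4.47%. Of 362 solute carrier genes 9 were higher and 17 lower, 7.18% in all against 5.51% over all genes, and of 36 Hox genes 0 were called. Of the 5 genes the call was lost after adjustment for spike-in level for Il33 (adjusted p = 0.289), Mfsd2a (0.122) and Smad3 (0.247), and on dropping cerebellum 4 and 5 for Il33 (adjusted p = 0.0716) and Smad3 (0.0765).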
